A study of Homo sapiens with 8 samples.

Results

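The classical cadherins and catenins described here are the transcripts of 5 genes, out of 25369 in the deposited expression table: the E-cadherin gene CDH1, the P-cadherin gene CDH3, and the catenin genes CTNNA1 (α-catenin), CTNNB1 (β-catenin) and CTNND1 (p120-catenin). They were chosen by name as core components of the adherens junction, and all 5 were among the 11899 genes that passed the filter on low values, at least 0.5 RPKM in at least 4 libraries. RPKM is the read count scaled by gene length and by library total, so levels of different genes within a library can be compared. The samples were 8 RNA-seq libraries of EPC2-hTERT, a telomerase-immortalised human esophageal epithelial cell line. In 4 of them the cells stably carried a lentiviral control hairpin RNA (shCtrl), and in 4 a lentiviral hairpin targeting HIF1A (HIF1A-KD), and each group has libraries numbered 1 to 4. Group means below carry their SD over n = 4 libraries. All were grown on permeable membranes under raised calcium chloride (1.8 mM, 5 days) and lifted to air (4 days), which lets the cells form layers. How many hairpins or clones stand behind each line is not stated, nor whether libraries of a group came from separate cultures, so the tests measure only the spread between these libraries. A vehicle and a hydroxylase inhibitor are named in the protocol and are not assigned to any library.

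Adherens junctions hold neighbouring epithelial cells together. Classical cadherins bind each other across the gap between cells through their extracellular repeats, a step that needs calcium. Inside the cell, β-catenin or its relative plakoglobin binds the cadherin tail, α-catenin links that complex to actin, and p120-catenin binds next to the membrane and slows removal of the cadherin from the surface. In stratified squamous epithelium E-cadherin is found through the layers, while P-cadherin is known mainly from the basal layer. β-catenin has a second role, as the coactivator of Wnt target genes.

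The HIF1A transcript, the target of the hairpin, was at 95.2, 51.4, 89.8 and 122 RPKM in shCtrl 1 to 4 and at 27.6, 19.0, 54.8 and 45.0 RPKM in HIF1A-KD 1 to 4. It was lower in HIF1A-KD for every number, although HIF1A-KD 3 lay above shCtrl 2. The log2 change was −1.34, with adjusted p = 0.319 in the unpaired limma test and adjusted p = 0.0253 with the library number as a block, called the paired fit below. The labels state no such pairing, which was taken from correlations between the libraries in these data. By those correlations shCtrl 3 and 4 were closer to HIF1A-KD 4 and 3. That paired call was lost without any library numbered 1 or 2 or without HIF1A-KD 4 (adjusted p from 0.0521 to 0.188). By the reads implied by the deposited values, the libraries held 38068729 to 65326907 reads. Libraries numbered 1 and 2 also differed from those numbered 3 and 4 in both groups, a difference for which the labels give no reason. Of the keratinocyte markers, all 11 were expressed, KRT5 at 5261 ± 991 and 4977 ± 381 RPKM in shCtrl and HIF1A-KD. The defining leukocyte markers PTPRC and CD3E were at 0 in every library, and PECAM1 and CDH5 of the endothelial list stayed under 0.5 RPKM. From the same lists CD14, a monocyte marker, was at 1.35 to 10.02 RPKM and VWF, an endothelial marker, at 0.652 to 15.3 RPKM over the 8 libraries, and neither was called (paired adjusted p = 0.533 and 0.320).

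Both cadherin transcripts were lower in HIF1A-KD, by like amounts, and the 3 catenin transcripts were not called in either fit. CDH1 averaged 159 ± 36.8 RPKM over the shCtrl libraries and 95.2 ± 35.8 RPKM over the HIF1A-KD libraries (SD, n = 4 each), 60.0% of the control mean. CDH3 averaged 120.2 ± 33.5 and 68.6 ± 19.7 RPKM, 57.0% of the control mean. In the paired fit both fell. In the unpaired test neither passed.

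CDH1 held 113, 145, 188 and 189 RPKM in shCtrl 1 to 4. In HIF1A-KD 1 to 4 it held 52.9, 79.8, 116 and 132 RPKM. Every HIF1A-KD library was below the shCtrl library of its number, but the groups overlapped, since HIF1A-KD 3 and 4 exceeded shCtrl 1. On the log2 scale the difference was −0.79 (SE 0.31 unpaired, 0.11 paired), with an adjusted p of 0.545 in the unpaired limma fit and 0.0318 in the paired fit. The difference within a number ran from −1.09 in number 1 to −0.51 in number 4.

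CDH3 held 71.1, 127, 143 and 140 RPKM in shCtrl 1 to 4. In HIF1A-KD 1 to 4 it held 42.7, 63.7, 85.0 and 82.8 RPKM. The only shCtrl library within the HIF1A-KD range was shCtrl 1, and within each number HIF1A-KD was lower. The log2 change was −0.81 (SE 0.30 unpaired, 0.09 paired), with adjusted p-values of 0.498 (unpaired) and 0.0163 (paired). The differences within a number were close to each other, from −0.99 in number 2 to −0.73 in number 1.

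**Figure D1:**
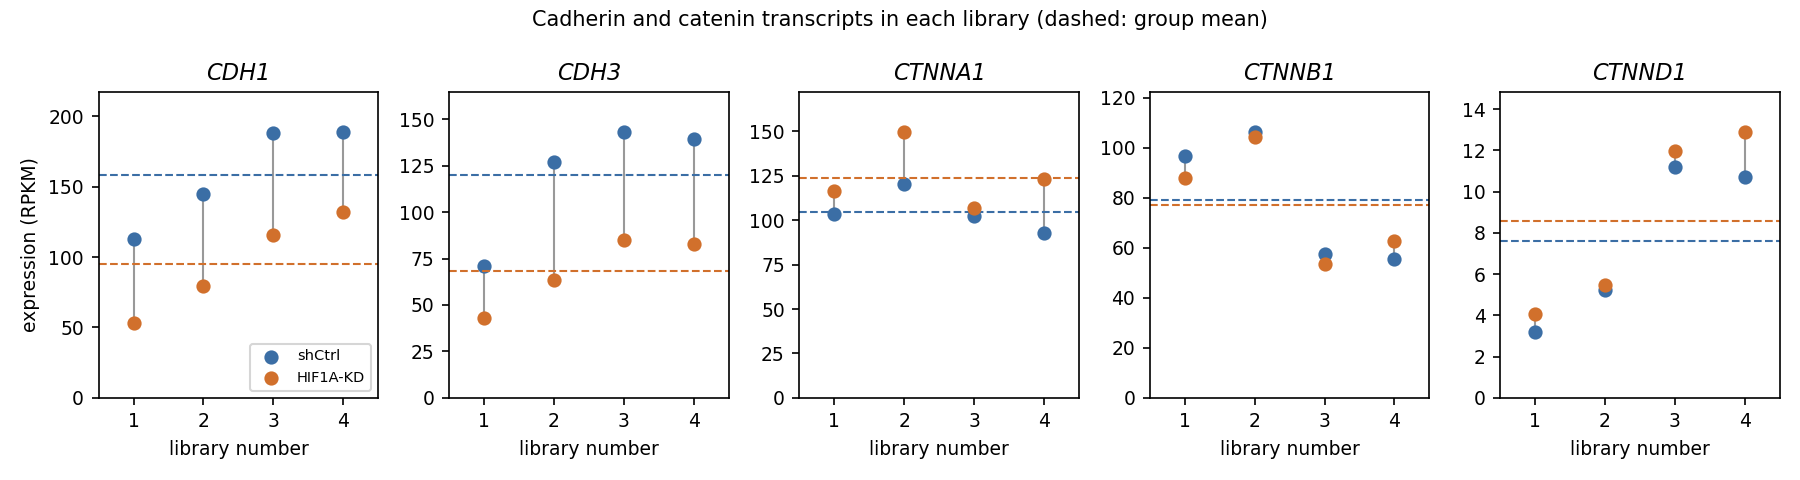
Expression in RPKM (vertical axis, linear from 0) of the 5 genes by library number (horizontal axis), with shCtrl and HIF1A-KD joined by a line within each number and group means dashed. CDH1 and CDH3 lie lower in HIF1A-KD at each of the 4 numbers, while CTNNB1 and CTNND1 differ more between numbers than between groups.

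Among numbers 1 and 2 alone, and again among numbers 3 and 4 alone, the HIF1A-KD libraries of both cadherins lay below the shCtrl libraries with no overlap. The log2 change of CDH1 was −0.98 within numbers 1 and 2 and −0.61 within 3 and 4, and that of CDH3 was −0.86 and −0.75, where no adjusted p passed (0.890, 0.271, 0.927 and 0.166). With this split of the numbers as a covariate over all 8 libraries the adjusted p was 0.0677 for CDH1 and 0.106 for CDH3. Of all tested genes 5.52% were lower without overlap in both of these subsets, and 10.7% were lower in HIF1A-KD in all 4 pairs. The 2 cadherins were the only members lower in all 4 pairs. In the paired fit 2 of the 5 members fell and 0 rose, where 1.83% of all tested genes were called in either direction and 1.09% fell. In the unpaired fit 0 of the 5 were called and 0.042% of all tested genes, although CDH1 and CDH3 had an unadjusted p of 0.0298 and 0.0229. Of all 11899 tested genes, 928 had an unadjusted p under 0.05 in that fit. By exact permutation of the 4 against 4 log2 levels, two-sided, p was 0.0857 for each cadherin; no 4 against 4 comparison can give less than 0.0286. The paired call of CDH1 was lost when any library numbered 1, 2 or 3 was left out (adjusted p from 0.0523 to 0.214), and that of CDH3 when a library numbered 1 or 2 was left out (0.0893 to 0.158). The count of genes called in the paired fit also rests on these libraries: it was 218 with all 8, 20 and 33 without either library numbered 1, and 5 and 1 without either numbered 2.

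The authors' deposited table, made from the same libraries, gives log2 changes of −0.80 for CDH1 and −0.88 for CDH3. In a second column, headed as adjusted, they are −0.81 and −0.85, and how these were adjusted is not stated. Its adjusted p-values are 1.55e-06 and 3.79e-14, which place CDH3 at rank 37 and CDH1 at rank 157 of 13627 genes by p. Of all genes in the authors' deposited table, 9.02% have an adjusted p of at most 0.05, and the 3 catenins are not among them (0.571 for CTNNA1, 0.771 for CTNNB1 and 0.707 for CTNND1).

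In bulk RNA, fewer cells of a layer and less transcript in each cell cannot be told apart. Markers of other cells were looked at beside these changes. The summed level of the 8 fibroblast markers ran from 21.2 to 27.7 RPKM among shCtrl libraries and from 14.1 to 19.2 RPKM among HIF1A-KD libraries, nearly all of it COL1A1 (log2 change −0.61, adjusted p = 0.319 unpaired and 0.0920 paired). The authors' deposited table gives COL1A1 an adjusted p of 0.000133. The other 7 markers of that list, PDGFRA, DCN and LUM among them, stayed under 0.5 RPKM in every library, and THY1 was at 0. The mucosal keratins KRT4 (386 ± 242 to 1521 ± 355 RPKM, adjusted p = 0.107 unpaired and 0.0786 paired) and KRT13 (253 ± 289 to 801 ± 330 RPKM; 0.464 and 0.116) were higher in HIF1A-KD in all 4 pairs and were not called. Of the 11 keratinocyte markers, 7 estimates were above 0 and 4 below, and 0 were called in either limma fit. The differentiation markers IVL (log2 change 0.31, paired adjusted p = 0.430) and TGM1 (−0.43, 0.512) were not higher in all 4 pairs. KRT5 (−0.06) and KRT14 (0.13), keratins of basal cells, and TP63 (−0.10) were not called either. SOX2, from the same list, was at 1.315 ± 0.220 and 3.479 ± 1.575 RPKM and was higher in HIF1A-KD in all 4 pairs. Its log2 change of 1.23 was not called (adjusted p = 0.348 unpaired and 0.0847 paired). The authors' deposited table gives SOX2 an adjusted p of 0.00261. The part of these marker differences in the cadherin difference was not tested.

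CDH1 and CDH3 are neighbours. In hg19 coordinates CDH3 lies on chromosome 16 from 68678151 to 68732957 and CDH1 from 68771195 to 68869444, both on the plus strand, with 38.2 kb between them. Within 500 kb on either side the table holds 17 other genes, a window chosen after the cadherin values were known. Of these, 0 were called unpaired and 1 paired, where 0.042% and 1.83% of all tested genes were called. The 1 was SMPD3, a sphingomyelinase gene upstream of CDH3, at 14.4 ± 14.7 and 5.30 ± 4.81 RPKM (log2 change −1.33, paired adjusted p = 0.0113, lost without any library numbered 1 or 2). The genes next to the cadherins were not called. ZFP90 before CDH3 had a log2 change of −0.14 (paired adjusted p = 0.673) and TANGO6 after CDH1 a log2 change of 0.105 (unpaired adjusted p = 0.986).

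The balance between E- and P-cadherin transcripts was like in the groups. The ratio of CDH3 to CDH1 RPKM was 0.629, 0.877, 0.762 and 0.738 in shCtrl 1 to 4. It was 0.808, 0.798, 0.733 and 0.625 in HIF1A-KD 1 to 4. The means were 0.752 ± 0.102 and 0.741 ± 0.084, a difference smaller than the spread within either group, with CDH1 the higher of the pair in all 8 libraries. The sum of both cadherins ran from 184 to 331 RPKM among shCtrl libraries and from 95.6 to 215 RPKM among HIF1A-KD libraries.

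CTNNA1, whose product bridges the complex to actin, did not fall with the cadherins. It held 103, 120.3, 102 and 92.9 RPKM in shCtrl 1 to 4. In HIF1A-KD 1 to 4 it held 116, 149.7, 107 and 123 RPKM. Each HIF1A-KD library was above the shCtrl library of its number, a pattern that 18.6% of all tested genes showed, and the groups overlapped. The means were 104.7 ± 11.4 and 124 ± 18.4 RPKM, and the log2 change of 0.24 (SE 0.17 unpaired, 0.09 paired) was not called (adjusted p = 0.836 unpaired and 0.229 paired). The gene spans chromosome 5 from 138089085 to 138270723 on the plus strand in hg19.

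CTNNB1, which ties the cadherin tail to α-catenin, held 96.6, 106, 57.7 and 55.6 RPKM in shCtrl 1 to 4. In HIF1A-KD 1 to 4 it held 87.9, 104, 53.7 and 62.6 RPKM. The groups overlapped over nearly their whole range. Their means were 79.1 ± 26.2 and 77.1 ± 23.2 RPKM, with a log2 change of −0.03 (SE 0.29 unpaired, 0.09 paired; adjusted p = 0.999 and 0.909). The spread followed the library number, since libraries 1 and 2 of both groups held 87.9 to 106 RPKM and libraries 3 and 4 held 53.7 to 62.6 RPKM. CTNNB1 lies on chromosome 3 from 41240942 to 41281939 on the plus strand in hg19.

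CTNND1, the p120-catenin gene, went with the library number the other way. It held 3.21, 5.25, 11.2 and 10.7 RPKM in shCtrl 1 to 4. In HIF1A-KD 1 to 4 it held 4.06, 5.49, 12 and 12.9 RPKM. All 4 libraries numbered 1 or 2 were below all 4 libraries numbered 3 or 4, and within a number HIF1A-KD was the higher. The log2 change of 0.19 (SE 0.50 unpaired, 0.12 paired) was not called (adjusted p = 0.988 and 0.432).

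The level of CTNND1 needs care. The gene spans chromosome 11 from 57529234 to 57586652 on the plus strand in hg19, and the table also lists a read-through gene, TMX2-CTNND1, from 57479995 to 57586652, which covers CTNND1 whole. TMX2-CTNND1 was at 0 in 6 of 8 libraries and had at most 7 reads, while CTNND1 had 987 to 3720 reads. How reads in exons shared by overlapping genes were assigned is not stated, so the low CTNND1 level relative to the other members is uncertain. The other members had 8336 to 47439 reads in every library, so counting error is small beside the spread between libraries.

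In the order of mean level over the 8 libraries CDH1 came first (127 RPKM), followed by CTNNA1 (114), CDH3 (94.4), CTNNB1 (78.1) and CTNND1 (8.09). In shCtrl CDH1 was above CTNNA1 in every library, and in HIF1A-KD 1 and 2 CTNNA1 was above CDH1. The ranges of CDH1, CTNNA1, CDH3 and CTNNB1 over the libraries overlapped, and that of CTNND1, at most 12.9 RPKM, lay below all the others.

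**Figure D2:**
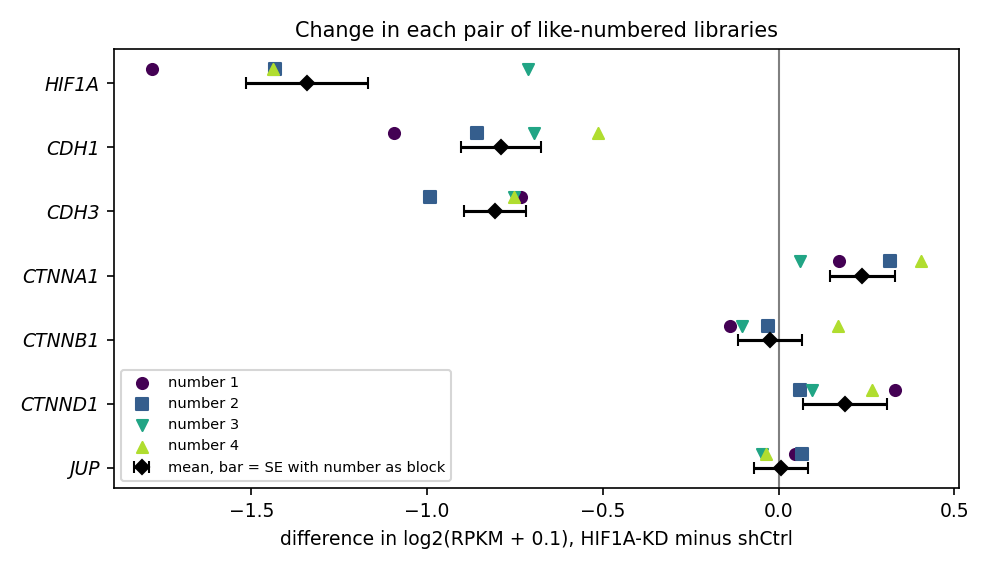
Difference in log2(RPKM + 0.1) between HIF1A-KD and shCtrl (horizontal axis) within each library number (coloured symbols) for HIF1A, the 5 genes and JUP, with the mean and its SE from the paired fit (black). CDH1 and CDH3 lie left of 0 at all 4 numbers, at means of −0.79 and −0.81, and JUP lies near 0.

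Since the cadherins fell in the paired fit and the catenins did not, each catenin was more abundant relative to the cadherins in HIF1A-KD. The ratio of CTNNA1 to the sum of CDH1 and CDH3 was 0.561, 0.443, 0.309 and 0.283 in shCtrl 1 to 4. It was 1.22, 1.04, 0.532 and 0.571 in HIF1A-KD 1 to 4, higher at each number, with HIF1A-KD 3 below shCtrl 1. For CTNNB1 the ratio ran from 0.169 to 0.525 in shCtrl and from 0.267 to 0.919 in HIF1A-KD, again higher at each number and with overlapping groups. For CTNND1 the ratio ran from 0.0174 to 0.0338 in shCtrl and from 0.0382 to 0.06 in HIF1A-KD. These ratios share the cadherin sum as denominator and restate its fall, so they were not tested.

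**Figure D3:**
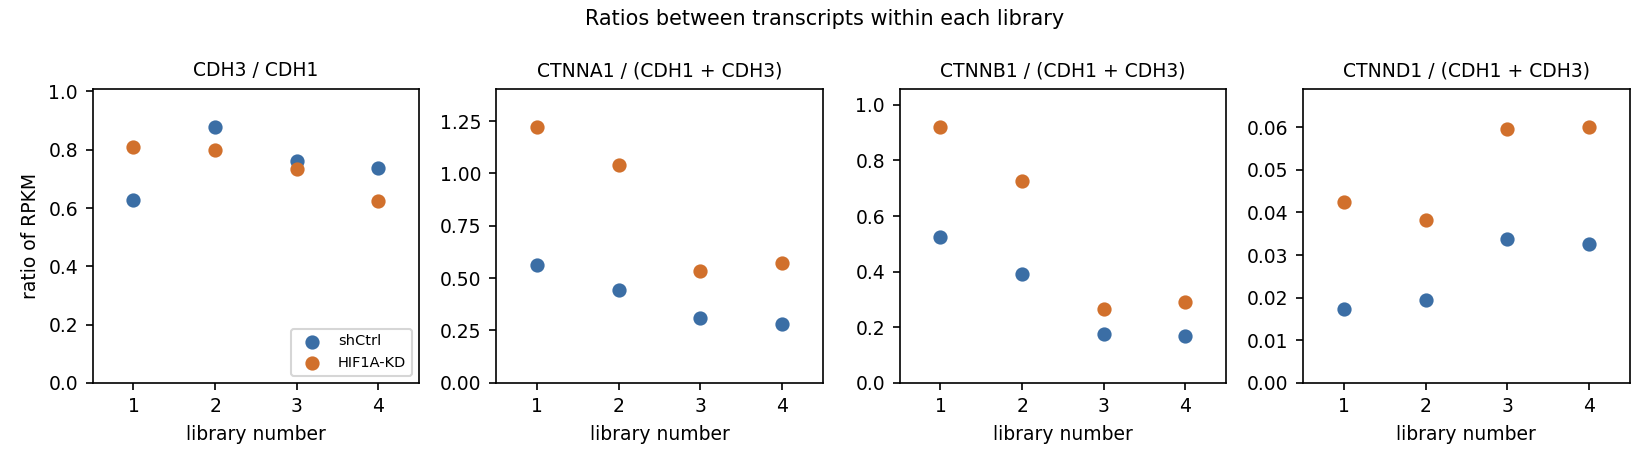
Ratios of RPKM (vertical axes, linear from 0) by library number: CDH3 to CDH1, and each catenin to the sum of CDH1 and CDH3, in shCtrl and HIF1A-KD. The CDH3 to CDH1 ratio stays between 0.625 and 0.877, and the 3 catenin ratios are higher in HIF1A-KD at every number.

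Plakoglobin, the relative of β-catenin encoded by JUP that serves adherens junctions and desmosomes, was more abundant than the 3 catenin transcripts above in all 8 libraries. JUP averaged 1133 ± 147 RPKM over the shCtrl libraries and 1137 ± 125 RPKM over the HIF1A-KD libraries, with a log2 change of 0.007 (adjusted p = 0.999 unpaired and 0.973 paired). Its level was 9.52 to 22.3 times that of CTNNB1 over the 8 libraries, with the lower ratios in numbers 1 and 2. Of the 7 paralogous catenins 4 were tested and 0 were called in either limma fit. PKP4, a relative of p120-catenin, had a log2 change of 0.13 (paired adjusted p = 0.520).

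Other classical cadherins were scarce. Of 16 in that list CDH4, CDH11 and CDH24 passed the filter, and 0 were called in either limma fit. CDH4, the retinal cadherin gene, was low, at 0.606 to 0.815 RPKM among shCtrl libraries and 0.278 to 0.463 RPKM among HIF1A-KD libraries (log2 change −0.76, adjusted p = 0.635 unpaired and 0.247 paired). In the authors' deposited table CDH4 has an adjusted p of 0.0143. CDH24 held 1.88 ± 0.45 and 2.32 ± 0.24 RPKM and CDH11 held 2.15 ± 1.09 and 1.59 ± 1.04 RPKM. CDH2, the N-cadherin gene of mesenchymal and neural cells, was too low to test, between 0.048 and 0.144 RPKM among shCtrl libraries and between 0.080 and 0.257 RPKM among HIF1A-KD libraries. Among 9 tested atypical cadherins 1 fell in the paired fit, where 1.09% of all tested genes fell. This was CDH13, which encodes the membrane-anchored T-cadherin without a cytoplasmic tail. It lies on chromosome 16 at 82660399 to 83830215, away from CDH1, and went from 23.4 ± 4.88 to 15.6 ± 4.35 RPKM (log2 change −0.60, adjusted p = 0.536 unpaired and 0.0485 paired). The call of CDH13 was lost whichever library was left out (adjusted p from 0.0644 to 0.267).

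Of 20 tested linkers and partners of the junction, 1 fell in the paired fit, 0 rose, and 13 estimates were below 0. Over all tested genes 1.09% fell in that fit, and 58.7% of estimates were above 0. ZYX encodes zyxin, an actin-associated protein recruited to junctions and focal adhesions under tension. It spanned 127 to 202 RPKM among shCtrl libraries and 89.6 to 119.7 RPKM among HIF1A-KD libraries (log2 change −0.69, adjusted p = 0.327 unpaired and 0.0251 paired). The paired call of ZYX was lost without any library numbered 1 or 2 or without HIF1A-KD 4 (adjusted p from 0.0506 to 0.190). VCL, the vinculin gene, whose product binds stretched α-catenin, had a log2 change of −0.08 (paired adjusted p = 0.924) and differences within a number from −0.97 to 1.18. Genes for cadherin turnover and phosphorylation had 0 of 24 tested members called in either limma fit, with a median log2 change of −0.06, against 0.064 for all tested genes. Their most abundant members were ARF6 (0.27, paired adjusted p = 0.194), a small GTPase of membrane traffic, and the kinase gene CSNK2A1 (−0.22, paired adjusted p = 0.343). The authors' deposited table gives adjusted p-values of 9.18e-07 for ADAM10, 0.00161 for PTPRK and 0.0424 for SRC of this list, a protease, a receptor phosphatase and a kinase gene, each with a negative log2 change there.

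Regulators known to act on CDH1 or on the epithelial state, transcription factors plus the splicing regulators ESRP1 and ESRP2, gave no call in either limma fit among 16 tested of 21. SNAI2, the gene of the repressor Slug, which basal keratinocytes express, held 97.1 ± 41.1 and 77.1 ± 33.2 RPKM (log2 change −0.34, adjusted p = 0.940 unpaired and 0.468 paired). The repressor genes ZEB1, ZEB2 and SNAI3 stayed under 0.5 RPKM in every library, ZEB1 at no more than 0.074 RPKM. The repressor genes SNAI1 and TWIST1 were also too low to test. SNAI1 was at 0.299 to 2.70 RPKM in shCtrl libraries and 0.039 to 0.539 RPKM in HIF1A-KD libraries, and TWIST1 at 0.333 to 1.33 and 0 to 0.343 RPKM. Both were lower in HIF1A-KD in all 4 pairs with overlapping groups. The most abundant factors of the list were KLF4 (0.32, paired adjusted p = 0.498) and GRHL3 (0.065, paired adjusted p = 0.745), both known from squamous differentiation.

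The β-catenin destruction complex and nuclear partners had 0 of 16 tested members called in either limma fit, with a median log2 change of 0.009. BCL9L, which encodes a β-catenin coactivator, has an adjusted p of 0.0356 and a moderated log2 value of −0.37 in the authors' deposited table. The kinase genes CSNK1A1 (0.29, paired adjusted p = 0.169) and GSK3A (0.033, paired adjusted p = 0.871) were the most abundant. Of 11 genes known as Wnt targets, MYC and CCND1 beside feedback regulators of the pathway, 5 were tested, and AXIN2, the most general of the feedback genes, was at 0 in 6 of 8 libraries. DKK1, a secreted Wnt inhibitor, was at 8.76 ± 4.20 RPKM in shCtrl libraries and at 4.21 ± 2.98 RPKM in HIF1A-KD libraries, and it fell in the paired fit (log2 change −1.16, adjusted p = 0.583 unpaired and 0.0287 paired). Leaving out any library numbered 1 or 2, or HIF1A-KD 4, ended that call (adjusted p from 0.0508 to 0.204).

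Together these 8 lists held 136 genes, of which 97 were tested. In the paired fit 3 fell, CDH13, ZYX and DKK1, and 0 rose, which is 3.09% against 1.83% for all tested genes. Unpaired, 0 were called and 8 of the 97 had an unadjusted p under 0.05, beside 928 of all 11899 tested genes. The authors' deposited table holds 107 of these genes and gives 11 an adjusted p of at most 0.05 (10.3%, against the 9.02% over that whole table), 10 lower and 1 higher. Besides those named above with its values, these are ZYX, CDH13, DKK1, LIMA1, ACTN1 and, as the higher one, PVRL4. The median log2 change of the 97 was −0.012, with 51 estimates below 0 and 46 above. Over all tested genes the median was 0.064, and 58.7% of estimates were above 0. DKK1 was the only 1 of the 97 with an estimate as low as that of CDH1, and of all tested genes 3.50% had 1 as low.

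**Figure D4:**
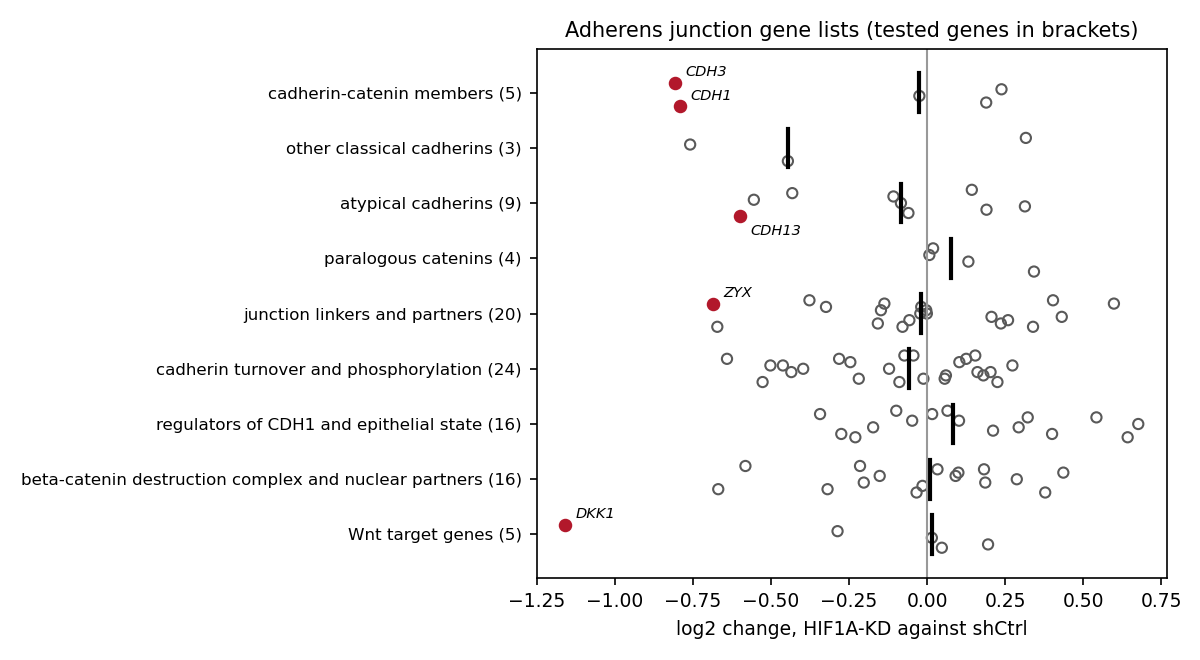
Log2 change between HIF1A-KD and shCtrl (horizontal axis) of each tested gene in the 5 members and 8 related lists (rows, with tested genes in brackets), with a bar at each median. Filled points passed the paired fit: CDH1, CDH3, CDH13, ZYX and DKK1, all below 0.

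The genes most like each member in their pattern over the 8 libraries were found by Pearson's correlation of log2(RPKM + 0.1) among 7098 genes with a mean of at least 5 RPKM. The 8 points share the group and the library number, so the values are a description. CDH3 was the fifth most like CDH1 (r = 0.962), and CDH1 the sixth most like CDH3. Ahead for CDH1 were CALD1 (r = 0.974), which encodes the actin-binding caldesmon, DBN1 (0.971), which encodes the actin-binding drebrin, and ZDHHC9 (0.968). For CDH3 they were RALY (0.975), CSE1L (0.969) and SORBS3 (0.967), which encodes the vinculin-binding vinexin.

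The catenins had other companions. CTNNA1 was most like ACTG1 (r = 0.980), the gene of cytoplasmic γ-actin, BAIAP2 (0.962) and PSMD14 (0.953). CTNNB1 was most like PLXNA1 (0.989), SFT2D2 (0.988) and PSMA2 (0.988). CTNND1 was most like the RNA-processing genes HNRNPC (0.996), SNRPD1 (0.996) and WBP11 (0.996). CTNNB1 and CTNND1, which parted by library number in opposite directions, had an r of −0.879 with each other.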

How the data were processed

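The deposited expression table holds RPKM made by the authors, although its name speaks of raw counts. The submitters' processing notes name TopHat2 2.0.13 with Bowtie2 2.2.3.0 and HTSeq 0.6.1. The strand setting was not given in the sources used here. Per the file headers the authors' second table gives a mean signal per group (normalised reads), fold ratios, log2 ratios and p-values, by a tool that no source used here names. Contig names in the table are those of hg19. Values times gene length were whole multiples of a step per library (100% of 24772 genes, within 0.01 read), which gave the read totals; 597 lengths were unreadable. Log2 values after adding 0.1 RPKM were compared with limma 3.58.1 in R 4.3.3 (robust, with a mean-variance trend), two-sided, Benjamini-Hochberg adjusted over 11899 genes at 0.05. The pseudocount understates changes of low genes. Both fits were tested on simulated counts. There all like-numbered libraries shared an effect of equal strength, so that test cannot judge the pairing.

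Deviations from the group means correlated across genes at 0.754, 0.730, 0.252 and 0.257 for same-numbered libraries, all over 0.1, so the number was used as a block in a second fit. This pairing comes from the data and not the labels, and shCtrl 3 and 4 correlated more with HIF1A-KD 4 and 3 (0.463 and 0.613). Besides the members, named genes were HIF1A, JUP, CDH2, VCL, SNAI2, ZEB1 and AXIN2, up to 3 genes of each list called in either fit or else its 2 most abundant, and the 3 genes most like each member; other names were added after their values were seen. The members and lists were chosen with earlier results of these data known, and 1 list is not reported here.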

Additional observations from a re-analysis of the deposited data

Results flagged for a closer look

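In groups of 4 libraries, a library was set apart where its gap to the nearest other exceeded Dixon's 95% critical share of the group's range. Of 60 groups, those of CDH2, ZEB1 and AXIN2 stayed under 0.5 RPKM and were passed over. Of the rest 3 met this, near the share of about 1 in 20 that chance gives. JUP was at 950 RPKM in HIF1A-KD 1, below the other HIF1A-KD libraries. RALY was at 29.8 RPKM in shCtrl 1 and SORBS3 at 13.9 RPKM in HIF1A-KD 1, each the lowest of its group.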

How the results depend on the processing

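The directions of CDH1, CDH3, CTNNA1 and HIF1A were kept in every setting run. Unpaired, CDH1 and CDH3 were called in no setting. With the replicate block the values were unchanged and passed, at −0.79 for CDH1, −0.81 for CDH3 and −1.34 for HIF1A; with HIF1A-KD 3 and 4 crossed, a pairing chosen after seeing the data, the adjusted p-values were 0.00772, 0.00259 and 0.00343. With libraries 1 and 2 against 3 and 4 as a covariate, CDH1 (0.0677) and CDH3 (0.106) did not pass. Leaving out each library, unpaired, gave −0.98 to −0.54 for CDH1, −1.04 to −0.60 for CDH3, −1.59 to −1.07 for HIF1A, −0.19 to 0.14 for CTNNB1 and −0.16 to 0.49 for CTNND1. With the block as well, both libraries of a number drop out, and the values ran to −0.88 for CDH1, −0.83 for CDH3 and 0.012 for CTNNB1 (0.001 without number 3), and from −1.55 to −1.31 for HIF1A where its call was kept. CTNNB1 was at 0.033 among libraries 3 and 4 alone. So the sign for CTNNB1 and CTNND1 turned with single libraries.

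The count of called genes, 5, was 3 at a pseudocount of 1 or 0.01 and with limma-voom, 1 without a filter, 8 with median-of-ratios scaling, 218 with the block, 1327 crossed, 102 with the covariate, 0 among libraries 1 and 2, and 0 to 3 with a library left out. With a library left out and the block it was 20 and 33 without either library numbered 1, 5 and 1 for number 2, 213 and 204 for number 3, and 239 and 180 for number 4. The cause was not tested. Of 216 list medians, 2 moved beyond the spread between libraries. Of these, 1 was that of the other classical cadherins, from −0.446 to 0.316 with a filter of 2 RPKM in 4 libraries. That filter left CDH24 as the only tested gene of the list, so the change is in membership. The smallest read count of a member was 987, so depth limits none of these comparisons as much as the spread between 4 libraries does.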

Other observations

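ADAM10, the protease known to shed the extracellular part of E-cadherin, was chosen here after its values were seen. It averaged 24.1 ± 3.31 RPKM over the shCtrl libraries and 16.7 ± 2.64 RPKM over the HIF1A-KD libraries (SD, n = 4 each) and was lower in HIF1A-KD in all 4 pairs, by 0.47 to 0.68 on the log2 scale. It was not called in either limma fit (adjusted p = 0.426 unpaired and 0.0554 paired), and the authors' deposited table lists it at an adjusted p of 9.18e-07. CDH26, an atypical cadherin of esophageal epithelium, was low and scattered, and its groups overlapped. It was at 0.525 to 5.76 RPKM in shCtrl (mean 1.965 ± 2.534, SD, n = 4). In HIF1A-KD it was at 0.399 to 1.647 RPKM (mean 0.876 ± 0.540). The gene was not called (paired adjusted p = 0.475).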
